A study of Mus musculus with 2 samples.

Results

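The enzymes that attach glutathione, a glucuronide or another sugar, or sulfate to foreign and endogenous compounds were described in mouse kidney. The members were the protein-coding genes whose symbols carry a listed stem with a number. Stems of glutathione transferases were cytosolic (Gsta, Gstm, Gsto, Gstp, Gstt), kappa (Gstk) and microsomal (Mgst). UDP-glycosyltransferases (Ugt1a, Ugt2a, Ugt2b, Ugt3a) and sulfotransferases (Sult1 to Sult6) gave the other stems. This naming rule uses no measured value, and it gave 65 genes of 21474 protein-coding genes and 43346 gene rows. One further gene that fits the rule, Ugt2a1, was not analysed here. The kidney came from a female mouse of strain C57BL/6J aged 10 weeks, with no treatment or altered allele named in the labels. Polyadenylated RNA was sequenced in 2 libraries that the labels call technical replicates 1 and 2 of 1 biological replicate, here library 1 and library 2. There is no second condition and no second animal, so every SD below (n = 2) and every ratio compares these 2 libraries only, and no p-value is given. The labels date library 2 to 2015, after the study's first publication, and do not say whether both libraries came from the same RNA preparation.

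Conjugation makes lipophilic compounds more soluble in water so that they can leave in urine or bile. Glutathione transferases join the thiol of glutathione to electrophiles, UDP-glucuronosyltransferases of the endoplasmic reticulum use UDP-glucuronate, and cytosolic sulfotransferases use the sulfate donor PAPS. In the kidney, proximal tubule cells are known for this chemistry, and their brush border also takes glutathione conjugates apart on the way to mercapturates.

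Expected counts, the estimated reads per gene, summed to 28263730 in library 1 and 20720537 in library 2. Mitochondrial genes and their nuclear copies on chromosome 1 held 73.9% of all TPM (a level scaled for transcript length and to the same sum in each library) in library 1 and 34.5% in library 2, which lowers the TPM of other genes by unequal amounts. For that reason differences between libraries are given as log2 ratios of counts after TMM scaling, library 2 over library 1, and levels as TPM in each library. Proximal tubule markers were present: 11 of 12 listed genes reached TPM 1 in both libraries, among them Miox (63.5 and 2196), Slc27a2 (457 and 1511) and Slc34a1 (93.5 and 1337). Whole tissue was sampled, so fewer cells of a type and less RNA per cell cannot be told apart.

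Of the 65 enzymes, 28 (43.1%) reached TPM 1 in both libraries, against 41.7% of all protein-coding genes. Another 8 reached it in library 2 alone and 1, Ugt2b37, in library 1 alone, with 1.10 and 0.89. The other 28 were under 1 in both, and 11 of these had no count in either library. The summed TPM of the members was 3315 in library 1 and 5801 in library 2 (4558 ± 1758, SD, n = 2). With mitochondrial genes and their copies left out of the scaling it was 12690 and 8858, so its direction depends on the scaling. A few genes held most of the members' TPM. The 6 most abundant by mean TPM made up 78.3% and 62.8% of it, and the first 10 made up 86.7% and 75.3%. These 6 were Gsta2, Sult1d1, Ugt3a2, Ugt1a2, Ugt3a1 and Gstm1. Gstm1 was among them through library 2 (412.02 TPM). In library 1, with 13.48 TPM, it was below many other members, among them Ugt1a7c (107.55), Ugt2b38 (97.47), Mgst1 (90.57) and Ugt1a10 (15.42). UGT genes held 45.6% and 33.6% of the members' TPM and SULT genes 27.9% and 9.9%. GST genes, with Gstk1 but without the Mgst genes, held 23.7% and 51.5%. The largest family by summed TPM was therefore UGT in library 1 and GST in library 2.

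**Figure D1:**
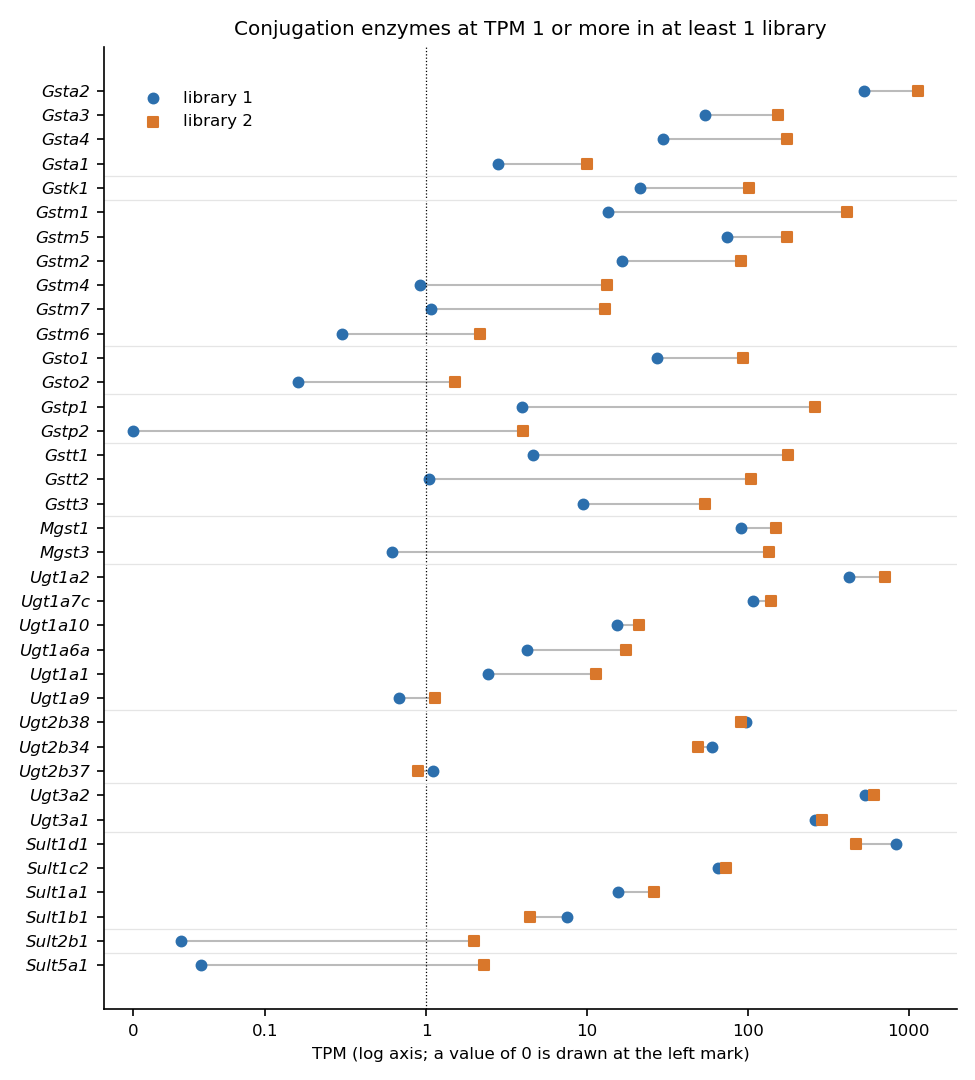
TPM on a log axis (a value of 0 is drawn at the left mark) of the members that reached TPM 1 in either library, with 1 point for each library and members ordered by subfamily. Gsta2, Ugt3a2, Ugt1a2 and Sult1d1 lie far to the right in both libraries, while Gstp1, Gstt2 and Mgst3 lie far apart between libraries.

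Among the cytosolic transferases, the alpha class was the most abundant, with summed TPM of 611.7 and 1483 over 4 genes. Gsta2 had 525 TPM in library 1 and 1143 in library 2 (834 ± 437, SD, n = 2), rank 56 among protein-coding genes by mean TPM. Its log2 count ratio was -0.03, with a 95% counting interval from -0.07 to 0.01, so the scaled counts were alike although the TPM values were not. Scaling to total counts instead gave 0.88. Gsta3 had 53.97 and 154.58 TPM, and Gsta4, whose product acts on the lipid peroxidation product 4-hydroxynonenal, had 29.86 and 174.88. Gsta1 had 2.80 and 10.08 TPM. Over long stretches of transcript, Gsta1 and Gsta2 are over 95% identical to each other and to the neighbouring gene Gm10639 (21.54 and 45.96 TPM). The split of reads among these 3 is therefore uncertain. Another near copy, Gm3776, was not analysed here. The summed counts of Gsta1, Gsta2 and Gm10639, which do not depend on the split among these 3, were 9453 and 12828. Their summed TPM was 549.4 and 1199.

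The mu class summed to 106.7 and 708.2 TPM over 7 genes. Gstm1 was its leading member by mean TPM, with 13.48 TPM in library 1 and 412.02 in library 2, from 452 and 7359 counts (log2 ratio 3.57, 95% counting interval 3.43 to 3.71). A processed pseudogene close to Gstm1 in sequence, Gstm2-ps1, was not analysed here. Gstm5 had 74.46 and 176.48 TPM, so in library 1 it was above Gstm1 and in library 2 below it. The order of the mu class members thus differed between the libraries. The mitochondrial and peroxisomal kappa enzyme Gstk1 had 21.30 and 102.02 TPM. Of the omega class, which includes dehydroascorbate reductase activity, Gsto1 had 27.44 and 93.48 TPM and Gsto2 0.16 and 1.52.

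The pi class has 3 members side by side on chromosome 19, and 2 of them are nearly the same in sequence. Over the 630 coding bases, Gstp1 and Gstp2 differ at 12 positions (98.1% identity), whereas Gstp1 and Gstp3 are 71.6% identical. The first 90 coding bases hold 6 of the 12 differences and are shown because only reads that cover such bases can tell the pair apart. They were read from GENCODE transcripts on mm10, minus strand, 5′ to 3′, with the differing bases in capitals. The span of the Gstp1 stretch, introns included, is chr19:4037344-4037863.
Gstp1: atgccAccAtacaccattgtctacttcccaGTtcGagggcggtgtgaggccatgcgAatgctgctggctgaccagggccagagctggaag
Gstp2: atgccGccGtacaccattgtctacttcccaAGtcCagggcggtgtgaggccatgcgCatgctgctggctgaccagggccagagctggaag

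Gstp1 had 3.96 TPM in library 1 and 261.22 in library 2, from 69 and 2433 counts (log2 ratio 4.68, 95% counting interval 4.34 to 5.05). Gstp2 had 0 and 38 counts. Taking the 38 counts as measured, its scaled count in library 2 was 9.23-fold a floor of 3 counts in library 1. The lower bound of the 95% counting interval of its log2 ratio was 2.84. Its TPM was listed at 0 in library 1 and at 4.0 in library 2. Gstp3 had 0 and 1 count. The sum over Gstp1, Gstp2 and the processed pseudogene Gstp-ps was 3.96 and 265.6 TPM, so the near copies as a sum also differed between libraries. How reads were split within the pair is uncertain.

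The theta class, on chromosome 10, summed to 15.22 and 335.3 TPM. Gstt1 had 4.64 and 176.99 TPM, Gstt2 1.05 and 104.07, and Gstt3 9.49 and 54.25. Gstt2 had a log2 ratio of 5.26 (95% counting interval 4.81 to 5.78) on 38 and 2020 counts. All 3 were at least 2-fold higher in library 2 by scaled counts, as were 36.9% of all genes, and Gstt3 lost this when the GC trend was removed (log2 ratio 1.17, then 0.14).

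The microsomal enzymes are membrane proteins of another fold, and some family members make leukotriene C4. Mgst1 had 90.57 and 149.13 TPM, with a log2 ratio of -0.28 that was 0.62 under total counts. Mgst3 had 17 counts in library 1 and 2034 in library 2, or 0.61 and 136.38 TPM. Its log2 ratio of 6.41 (95% counting interval 5.76 to 7.23) was the largest of the 41 members compared. Mgst2 had 0.17 and 0.63 TPM from 8 and 3 counts. Its log2 count ratio was -1.69, with a 95% counting interval from -4.42 to 0.19, so its sign is uncertain. Its mean TPM of 0.40 became 2.03 when the deposited posterior mean was used.

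The Ugt1a locus works as a set of alternative first exons. Each of 9 first exons along chromosome 1 is spliced to the same exons 2 to 5 (chr1:88215044-88218997, plus strand, mm10), which are 132, 88, 220 and 871 bases long. The first exon encodes the part of the enzyme that binds the substrate, and the shared exons encode the part that binds UDP-glucuronate. The 9 main transcripts have 1311 bases of these exons in common, from 40.6% of the transcript of Ugt1a7c to 59.9% of that of Ugt1a9. Reads in the common bases cannot separate the genes. Beside its first exon, Ugt1a7c has 1005 bases outside the common part, since its annotated transcript runs further at the 3′ end. The junctions of 5 genes are shown for that reason, as GENCODE transcript sequence 5′ to 3′, with the last 30 bases of exon 1 in lower case and the first 30 of exon 2 in capitals. The lower-case part of Ugt1a2 is chr1:88201471-88201500.
Ugt1a10: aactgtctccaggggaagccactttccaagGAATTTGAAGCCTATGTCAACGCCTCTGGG
Ugt1a7c: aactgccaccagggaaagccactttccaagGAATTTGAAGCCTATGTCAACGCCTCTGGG
Ugt1a5: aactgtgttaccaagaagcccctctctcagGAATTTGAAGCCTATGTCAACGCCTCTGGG
Ugt1a2: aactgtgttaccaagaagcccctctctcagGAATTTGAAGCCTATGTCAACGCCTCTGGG
Ugt1a1: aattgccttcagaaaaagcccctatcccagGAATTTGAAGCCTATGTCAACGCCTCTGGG

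The 9 genes have 7 distinct exon 1 ends of this length. Ugt1a5 and Ugt1a2 share an end, as do Ugt1a6a and Ugt1a6b, whose junctions are not shown. The levels of Ugt1a2 and Ugt1a5 were nonetheless assigned far apart. Ugt1a2 had 426.21 and 716.65 TPM (571 ± 205, SD, n = 2), while Ugt1a5 had 0.06 and 0. Ugt1a7c followed with 107.55 and 138.76 TPM, then Ugt1a10 with 15.42 and 20.95. Ugt1a6a, of the kind known for small planar phenols, had 4.26 and 17.51 TPM. Ugt1a1, the bilirubin-conjugating enzyme, had 2.41 and 11.37. Ugt1a9 had 0.68 and 1.13 TPM, Ugt1a6b 0.20 and 0.92, and Ugt1a8 had no count. Some of these genes are near copies beyond the common exons. Ugt1a6a and Ugt1a6b are 98.8% identical over 2172 bases, and Ugt1a9 and Ugt1a10 96.49% over 2190. An annotated transcript of Ugt1a7c matches Ugt1a6a at 100% over 2172 bases. The split of reads among such genes is uncertain. Ugt1a2, Ugt1a7c and Ugt1a10 came in this order in both libraries.

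The deposited intervals, which surround posterior mean TPM and whose level is not stated, were 409 to 420 and 666 to 686 for Ugt1a2 and 102 to 107 and 127 to 137 for Ugt1a7c. They did not overlap between these genes in either library. Among the 9 main transcripts, only that of Ugt1a7c holds the 1005 further bases at the 3′ end. The effect of these bases on its level was not tested. In library 2 the intervals of Ugt1a10 (17.7 to 22.8) and Ugt1a6a (14.9 to 19.1) did overlap, so these neighbours in the order were not separated there. Summed over the locus, Ugt1a TPM was 556.8 and 907.3. The log2 ratio of the summed counts was -0.70 after TMM scaling and 0.20 under total counts, so its direction depends on the scaling.

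**Figure D2:**
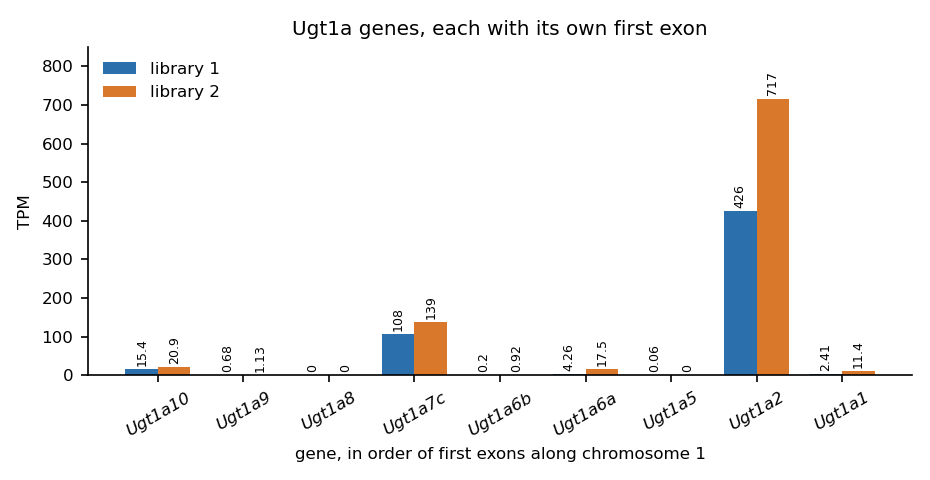
TPM (bars from 0, values printed above) of the 9 Ugt1a genes in each library, in the order of their first exons along chromosome 1. Ugt1a2 is highest in both libraries (426 and 717), followed by Ugt1a7c (108 and 139).

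The Ugt3a enzymes are known for sugar donors other than UDP-glucuronate: UGT3A1 for UDP-N-acetylglucosamine and UGT3A2 for UDP-glucose and UDP-xylose. Ugt3a2 had 532.76 and 613.41 TPM (573 ± 57.0, SD, n = 2) and Ugt3a1 262.84 and 287.90 (275 ± 17.7). They lie next to each other on chromosome 15 and are 93.2% identical over 1569 coding bases. With a summed TPM of 795.6 and 901.3, these genes exceeded the whole Ugt1a locus in library 1 and were close to it in library 2. In scaled counts Ugt3a2 had a log2 ratio of -1.15 and Ugt3a1 of -1.22, which were -0.25 and -0.32 under total counts, and on TPM both were higher in library 2.

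Of the Ugt2b genes on chromosome 5, whose products conjugate steroids, bile acids and drugs, Ugt2b38 had 97.47 and 90.98 TPM and Ugt2b34 59.86 and 48.97. Ugt2b37 and Ugt2b5 were near TPM 1, and Ugt2b1, Ugt2b35 and Ugt2b36 were at most 0.08 in either library. Ugt2b38 and Ugt2b5 are 97.0% identical over 1590 coding bases, and their summed TPM was 98.42 and 91.79. Of the Ugt2a genes, Ugt2a3 had 0.34 and 0.28 TPM and Ugt2a2 no count. The log2 ratios of Ugt2b34 (-1.65), Ugt2b37 (-1.65) and Ugt2b38 (-1.46) were negative under each of 5 scalings of the libraries. With the trend in GC content removed they were -0.08, 0.12 and 0.29.

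Sulfotransferase RNA came almost entirely from the Sult1 subfamily, with 924.7 and 571.6 TPM of the family's 925.1 and 576.0. Sult1d1, which sulfonates catecholamines and other phenols, had 836.73 and 468.10 TPM (652 ± 261, SD, n = 2), and it was the most abundant member of all in library 1. It had 53274 and 17181 counts and a log2 ratio of -2.09 (95% counting interval -2.11 to -2.06), lower in library 2 under each of the 5 scalings. Sult1b1, at 7.52 and 4.44 TPM, had the same log2 ratio of -2.09. Sult1c2 had 64.86 and 73.06 TPM and the phenol sulfotransferase Sult1a1 15.51 and 26.02. The estrogen sulfotransferase Sult1e1 was at 0.09 and 0.

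Outside Sult1, no member reached TPM 1 in both libraries. The hydroxysteroid sulfotransferases Sult2a1, Sult2a4, Sult2a5, Sult2a6 and Sult2a7 had no count in either library, nor had Sult1c1, Sult3a2, the brain form Sult4a1, or Sult6b1. A floor of 3 counts for the 11 members without counts corresponds to TPM between 0.044 and 0.157 in library 1 and between 0.083 and 0.293 in library 2, for counting error only. Levels below these were not detectable at this depth. Sult2b1, a cholesterol sulfotransferase, had 0.03 and 1.99 TPM, Sult5a1 0.04 and 2.29, Sult3a1 0.04 and 0, and Sult6b2 0.03 and 0. Sult5a1 had 1 and 34 counts, and its log2 ratio of 4.15 has a wide 95% counting interval, from 2.06 to 9.98.

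Several members also differed between libraries in which transcript had the largest deposited share. Of 20 members at TPM 5 or more in both libraries, 15 have more than 1 annotated transcript. Of the 15, 4 had a different leading transcript in each library. The share over all genes was not computed, so this number is no result about the members. Transcript shares are estimates, given here without intervals. In Gsta2 the 751-base transcript made up 64.1% and 28.95% and the 870-base transcript 27.9% and 70.9%. In Gstm2 the 854-base transcript went from 60.3% to 0% and the 1064-base transcript from 36.1% to 98.1%. For Gstm5 the 658-base transcript took 51.1% and 0.01% and the 945-base transcript 13.6% and 99.6%. For Mgst1 the 742-base transcript took 90.8% and 4.54% and the 1167-base transcript 9.19% and 61.9%. Ugt3a1 was steady by comparison, with its 2244-base transcript at 79.7% and 80.7%. In all 4 genes the longer of the named transcripts had the larger share in library 2. Gene-level TPM uses these shares for its effective length, so the TPM of these 4 genes depends on them.

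**Figure D3:**
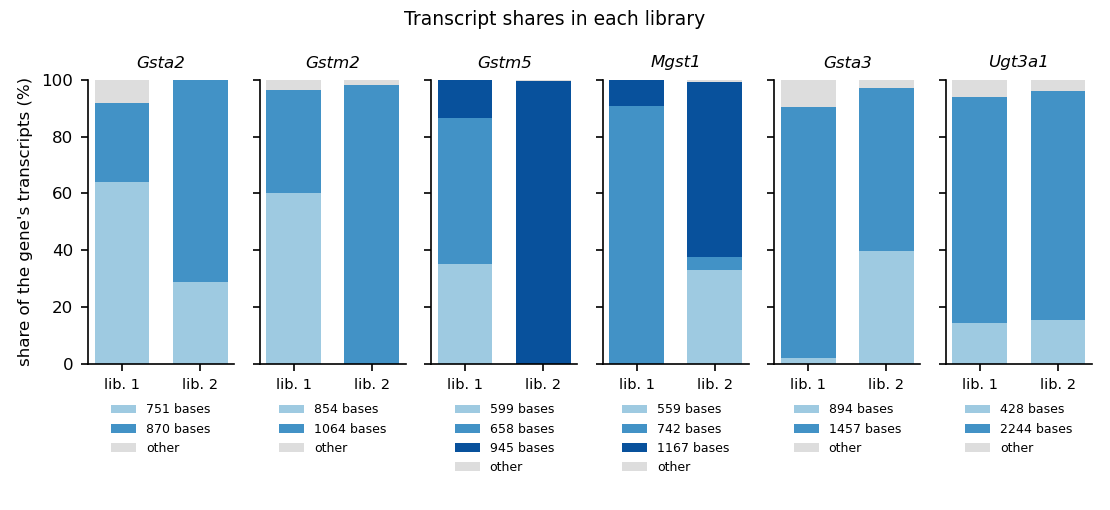
Deposited shares of each gene's transcripts (percent, stacked to 100) in libraries 1 and 2 for the 4 members whose leading transcript differed, and for Gsta3 and Ugt3a1, where it did not. Transcripts under 10% in both libraries are grouped as other.

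Across the members, 41 had at least 10 counts over both libraries and could be compared. Of these, 15 (36.6%) were at least 2-fold higher in library 2, against 36.9% of all genes compared, and 13 (31.7%) at least 2-fold higher in library 1, against 26.1%. Both shares were near the background. The median log2 ratio of the members was 0.48, beside 0.12 for all genes. Under total counts the medians were 1.39 and 1.02, a shift of 0.90 for all genes. Of the 41 members, 22 were then at least 2-fold higher in library 2, against 50.3% of all genes. In library 1, 2 of the 41 were, against 5.45%. The sign was the same for 28 members under 5 scalings (TMM, DESeq2 size factors, total counts, TPM, and TPM without mitochondrial genes and copies). It differed for 13, among them Gsta2, Gsta3, Gstm5, Mgst1, Sult1c2, Ugt1a2, Ugt1a7c, Ugt3a1 and Ugt3a2. The share of all genes whose sign differed was not computed.

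The families fell on different sides under TMM scaling. Of 18 GST genes compared, 12 were at least 2-fold higher in library 2 and none in library 1. Of 14 UGT genes, none was at least 2-fold higher in library 2 and 9 were in library 1. Over all genes compared the shares were 36.9% and 26.1%. Under total counts the family numbers were 16 and 0 for GST genes and 3 and 0 for UGT genes, against 50.3% and 5.45% of all genes. With the GC trend removed they were 10 and 0 for GST genes and 2 and 0 for UGT genes, against 14.6% and 13.1%. The median GC content of the leading transcripts was 51.7% for the GST genes and 44.0% for the UGT genes, and median log2 ratios were 1.38 and -1.11. Across the 41 members the ratio was higher at higher GC content (Pearson 0.84, Spearman 0.90, as a description), and across 14801 genes it did so to a like degree (0.82 and 0.89). The points share both libraries and are not independent. The 12 members under 45% GC had a median of -1.50, beside -1.47 for all such genes. The 17 members at 50% GC or more had a median of 2.68, beside 2.11. Of all 7399 genes at 50% GC or more, 5301 were at least 2-fold higher in library 2. Of all 3578 genes under 45% GC, 2923 were at least 2-fold higher in library 1.

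When the smooth GC trend over all genes was subtracted, 14 of the 41 members were at least 2-fold higher in library 2. Of all 14801 genes 2157 (14.6%) were. In library 1, 1 of the 41 members was at least 2-fold higher, against 1937 of all genes (13.1%). Members' ratios still rose with GC content after the subtraction (Spearman 0.496, beside -0.018 for all genes). The ratio of Sult1d1 went from -2.09 to 0.24. Mgst3 went from 6.41 to 5.94, Gstp1 from 4.68 to 1.85, and Gstt2 from 5.26 to 2.57. The part of GC content in the library difference was not tested further.

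**Figure D4:**
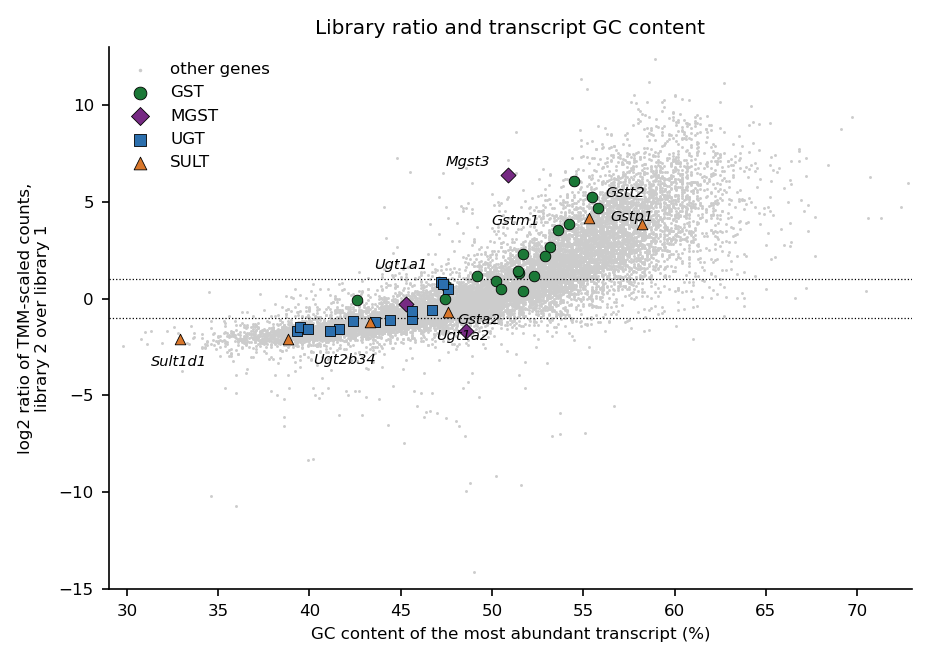
Log2 ratio of TMM-scaled counts, library 2 over library 1, against GC content (%) of the most abundant transcript, for all genes compared (grey) and the members (coloured by family). Dotted lines mark 2-fold. UGT genes sit at low GC and mostly negative ratios, GST genes at higher GC and mostly positive ratios.

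Genes that supply or follow the conjugation steps were read from lists. For UDP-glucuronate, UDP-glucose pyrophosphorylase Ugp2 had 147.07 and 100.92 TPM and the dehydrogenase Ugdh 79.96 and 72.56, followed by the transporter Slc35d1 at 6.86 and 13.03. All 5 genes of that list reached TPM 1 in both libraries. For sulfate, the brush border transporter Slc13a1 had 174.79 and 193.41 TPM, the PAPS synthase Papss2 158.08 and 165.00, and the phosphatase Bpnt1 101.96 and 218.41. Of 10 such genes 9 reached TPM 1 in both. Of 9 genes of glutathione synthesis and recycling 6 did, led by Gclm (185.15 and 218.96), Gclc (91.52 and 135.37) and Gss (7.89 and 163.48), with the cystine transporter Slc7a11 at 0.02 and 0.08.

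The mercapturate steps that follow glutathione conjugation had 7 of 10 genes at TPM 1 in both libraries. Ggt1, which removes glutamate from the conjugates, had 5.17 and 556.44 TPM, Acy3 8.44 and 390.45, and Lap3 75.27 and 187.90. By scaled counts 8 of these 10 genes were at least 2-fold higher in library 2, against 36.9% of all genes, with a median GC content of 53.1%. Of all 7399 genes at 50% GC or more, 5301 were. Dpep2 was at 0.06 and 0.33. Of 12 proteins of the same folds outside the naming rule, 7 reached TPM 1 in both, led by Gstz1 (68.44 and 226.21), Eef1g (14.17 and 174.26) and Clic4 (39.41 and 78.46), with Gdap1 at 0.02 and 0.

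Of 10 transcription factors known to act on conjugation genes or in the tubule, 7 reached TPM 1 in both libraries. Hnf4a had 34.24 and 223.72 TPM, Nfe2l2, the regulator of antioxidant response elements, 52.53 and 72.77, and Rxra 1.26 and 35.62. Nr1i3 was at 0.02 and 0.33.

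Markers of other cells were read beside these levels. The 10 liver markers summed to 79.28 and 82.61 TPM, with 4 at TPM 1 or more in both libraries, Apob (66.40 and 53.67), Fga (6.27 and 17.75) and Alb (3.55 and 7.05) leading. Ahsg, Serpina3k, Mup3, Cyp2c29 and Tat were under 1 in both. The 7 adrenal markers were under 1 in both, with a sum of 0.49 and 1.60. All 4 thick ascending limb markers and 8 of 9 distal tubule and collecting duct markers reached TPM 1 in both, with sums of 1001 and 3941 and of 228.5 and 894.8. The 7 blood and leukocyte markers summed to 39.22 and 1349 TPM, mainly through Hbb-bs (29.77, then 868.36) and Hba-a1 (0.65, then 435.98). Cd3e and Cd79a were under 1 in both. By scaled counts 3 of the 5 compared were at least 2-fold higher in library 2, against 36.9% of all genes. In library 1, 1 was, Ptprc (log2 ratio -1.52), against 26.1%. The part of blood in the library differences was not tested.

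Promoter windows from RefSeq (GRCm38.p6), from 250 bases before to 50 after each start, were found for 57 members in 68 windows. The letters TGACNNNGC, an antioxidant response element core, stood on either strand in 4 member windows (5.9%), against 12.4% of all 32851 windows. The 4 were those of Gsta3, Gstm5, Gstm7 and Mgst1. Median GC of the windows was 46.0% for members and 52.7% for all, and a match is a description, not a site.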

How the data were processed

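Both libraries came from RNA extracted with the RNeasy Lipid Tissue Mini Kit, with a stated size range of 350 to 450, per the labels. The authors deposited expected counts without normalization and posterior mean counts beside them, per the file headers. The authors deposited TPM as counts over effective length scaled to 1 sum, and transcript shares as a percent, per the file headers. Bounds of TPM intervals and SDs of counts within a library were deposited too and were treated as a signal that is never negative. A text deposited with the tables names assembly mm10 and annotation M4. The aligner and the quantifier were not given in the sources used here. Symbols came from GENCODE M21 by identifier (42462 rows, 98%), and 26345 rows that are not genes were at 0 and left out.

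Expected counts were rounded and scaled by TMM (edgeR 4.0.16). The log2 ratio used a prior count of 0.5, and exact conditional binomial 95% intervals cover counting error only (scipy 1.17.1, Python 3.11.15). A single library per side allowed no model fit, and a difference was called at 2-fold with at least 10 counts over both libraries. GC and length are those of the most abundant transcript. Near copies (at least 95% identity over 50% of a transcript) were found with blastn 2.17.0, for 18 members. The GC trend was a lowess over genes with at least 100 counts. The calls were tested on simulated Poisson counts with known changes. Those counts held no GC trend, so the test does not cover the trend seen here. Members named are the 10 of highest mean TPM, the leader of each subfamily, the 5 largest and 5 smallest ratios, all Ugt1a and Gstp genes and those at 0; others were added to describe a family after their values were seen. The members and lists were chosen with earlier results of these data known. Of 2 motifs searched in promoters, 1 is not reported here.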

Additional observations from a re-analysis of the deposited data

How the results depend on the processing

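Leaving out library 1 or library 2 gave 29 to 36 members at TPM 1 or more and a summed TPM of 3315 to 5801. With mitochondrial genes and their copies left out, mean summed TPM was 10780, from 12690 in library 1 and 8858 in library 2. The number of members at least 2-fold higher in library 2 was 25 on deposited TPM ratios. The number at least 2-fold higher in library 1 was 2 under total counts, 22 with at least 1 count, 0 on deposited TPM ratios and 1 with the GC trend removed. For TPM ratios and for at least 1 count, no share over all genes was computed. The numbers under these settings are therefore no result about the members. The median log2 ratio was 1.388 under total counts, 1.765 on TPM ratios and -0.295 with at least 1 count, where members of very few counts enter. DESeq2 size factors (1.42.0) gave 15 and 13 members, as TMM did. No paired analysis was possible because 1 group with 1 library of each number allows no block. With 1 tissue sample, no value here measures spread between animals, and genes with near copies depend on how reads were assigned.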
